A study of Mus musculus with 10 samples.

Results

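Epsilon cells, which make ghrelin, were compared gene by gene with alpha cells, which make glucagon, in the embryonic mouse pancreas. Cells were chosen by their own UMIs, a UMI being 1 counted transcript. Every cell had 200 or more detected genes, 1 or more UMIs of *Chga*, at most 1 UMI of *Col3a1*, and less than 1% of its UMIs from *Ins1* and *Ins2* together. An epsilon cell then held 0.3% or more *Ghrl* and less than 1% *Gcg*, and an alpha cell 1% or more *Gcg* and less than 0.1% *Ghrl*. These 6 genes chose the cells, so they are described below but were not tested. The rule gave 198 epsilon cells and 1081 alpha cells in the 4 libraries that had 10 or more cells of each class. Together these were 1279 of the 42935 cells with 200 or more genes in those libraries, and of 57982 in the 8 libraries of the series.

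The study set out to describe which cell types form in the developing pancreas and in what order. Of the libraries used, 3 came from Swiss Webster embryos, 1 at each of the embryonic days E12.5, E14.5 and also E17.5, in which live CD140a-negative cells were sorted from whole pancreata pooled within 1 litter, so that most mesenchyme had been removed. The fourth was a pool from 1 litter of *Fev-Cre; ROSA26mTmG* embryos at E14.5, kept on a C57BL/6J background, and is called Fev-Cre below. In these embryos Cre is made from the regulatory sequence of *Fev*, a gene of endocrine progenitors, and a cell in which Cre has acted carries membrane GFP from then on. GFP+ cells were enriched by the sort and loaded with a larger number of tdTomato+ cells without GFP. This library is thus no random draw of the tissue. Below, E12.5, E14.5 and E17.5 stand for the 3 Swiss Webster libraries used. All 4 used the version 2 kit, and the labels name no treatment. Each library was a single pool handled on its own, with TrypLE digestion of 10, 15 and 30 minutes from the youngest to the oldest stage, so stage, pool and digestion cannot be told apart, and p-values below measure the spread between 4 pools of 3 stages. The E17.5 suspension was run in 2 wells, which held 36 and 43 epsilon cells and were summed. The version 1 libraries, sorted for live cells only, had 4 to 17 epsilon and 6 to 36 alpha cells each and fell under the limit of 10 a side.

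The islet is made of endocrine cells that each release a main hormone. Ghrelin is made in the stomach after birth, but in the fetal pancreas a small population of epsilon cells makes it, and ghrelin becomes active only after an acyl chain is attached by the enzyme encoded by *Mboat4*. Alpha cells secrete glucagon, which raises blood glucose. All endocrine cells of the pancreas descend from progenitors that briefly make the transcription factor Ngn3, encoded by *Neurog3*.

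To show the sequence next to which the genes of these classes start, the promoters of both hormone genes are printed together with those of *Irs4*, the gene with the largest rise in epsilon cells, and of *Iapp*, an islet hormone gene with a large fall. Each runs from 250 bases before to 50 bases after a transcription start listed by RefSeq on GRCm38.p6, on the strand of the gene. The windows are chr6:113719862-113720161 (minus strand) for *Ghrl*, chr2:62483604-62483903 (minus) for *Gcg*, chrX:141725168-141725467 (minus) for *Irs4* and chr6:142298175-142298474 (plus) for *Iapp*. Capitals mark TATANAA, the letters of a TATA box, and CAGATG, a form of the E-box that proteins of the Ngn3 and Neurod1 class bind, each searched on both strands. These motifs share no site here. *Ghrl* has 4 starts in RefSeq and the window uses the one nearest the start of the gene in GENCODE.
Ghrl: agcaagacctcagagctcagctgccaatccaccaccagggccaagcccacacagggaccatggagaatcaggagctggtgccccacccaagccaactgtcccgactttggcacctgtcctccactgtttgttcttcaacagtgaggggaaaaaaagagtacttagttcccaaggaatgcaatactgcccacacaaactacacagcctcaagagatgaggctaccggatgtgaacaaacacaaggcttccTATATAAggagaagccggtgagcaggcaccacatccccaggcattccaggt
Gcg: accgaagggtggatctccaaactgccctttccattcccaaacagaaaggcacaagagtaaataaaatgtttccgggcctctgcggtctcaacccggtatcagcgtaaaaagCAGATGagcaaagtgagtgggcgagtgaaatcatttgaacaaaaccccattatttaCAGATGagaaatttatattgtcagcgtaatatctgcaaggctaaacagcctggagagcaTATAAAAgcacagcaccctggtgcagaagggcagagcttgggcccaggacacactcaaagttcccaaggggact
Irs4: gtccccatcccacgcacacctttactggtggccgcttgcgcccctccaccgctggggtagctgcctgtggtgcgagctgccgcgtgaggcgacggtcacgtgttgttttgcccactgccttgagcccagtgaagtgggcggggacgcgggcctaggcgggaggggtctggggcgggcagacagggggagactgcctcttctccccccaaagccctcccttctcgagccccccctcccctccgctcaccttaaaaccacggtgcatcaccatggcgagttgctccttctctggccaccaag
Iapp: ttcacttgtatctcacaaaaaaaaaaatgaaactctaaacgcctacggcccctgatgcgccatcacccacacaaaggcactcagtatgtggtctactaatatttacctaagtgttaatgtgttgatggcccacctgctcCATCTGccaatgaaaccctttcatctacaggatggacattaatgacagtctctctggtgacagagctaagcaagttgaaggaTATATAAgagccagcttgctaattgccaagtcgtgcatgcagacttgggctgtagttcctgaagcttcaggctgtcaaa
In the *Gcg* window TATAAAA began 24 bases before the start, and CAGATG 139 and 83 bases before it. The *Iapp* window held TATATAA 29 bases before the start and CATCTG, which is CAGATG on the other strand, 111 bases before it. *Ghrl* carried TATATAA from 1 base before the listed start and no CAGATG, and *Irs4* carried neither motif in this window. TATANAA was found in 11.9% of 27025 promoters, in 4.55% of the 5754 promoters of genes tested, in 5.56% of 108 promoters of genes higher in epsilon cells and in 7.02% of 114 of genes lower there. For CAGATG the shares were 17.3%, 10.4%, 14.8% and 10.5% in the same order. A match is a description of letters and not of binding. Of the 65 genes named by rule, 44 had a promoter entry.

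Both classes were found in every library used, in proportions that differed widely. E12.5 gave 21 epsilon and 197 alpha cells, E14.5 gave 61 and 99, Fev-Cre 37 and 541, and E17.5 gave 79 and 244. The median share of *Ghrl* in an epsilon cell was 1.30% of UMIs at E12.5, 3.26% at E14.5, 2.01% in Fev-Cre and 5.47% at E17.5, where single cells ran from 0.320% to 28.2%. The median share of *Gcg* in an alpha cell was 4.57%, 5.56%, 5.78% and 9.88% in the same order. No *Gcg* UMI at all was seen in 7 of 21, 41 of 61, 1 of 37 and 42 of 79 epsilon cells. Fev-Cre epsilon cells stand apart in this, and the other *Chga*+ cells of that library that passed no hormone limit also held a median of 2 *Gcg* UMIs, and its mesenchymal cells a median of 1. Some cells lay near the limits. With *Ghrl* from 0.3% to 0.45% there were 1, 6, 5 and 4 epsilon cells, and with 0.2% to 0.3% there were 3, 3, 5 and 2 cells just outside. With *Gcg* from 1% to 1.5% there were 18, 10, 34 and 6 alpha cells, and with 0.67% to 1% there were 9, 10, 30 and 11 just outside. Epsilon cells with 0.67% to 1% *Gcg* numbered 3, 1, 2 and 0. Cells over the *Ghrl* limit with 1% to 1.5% *Gcg*, just outside the epsilon class, numbered 1, 2, 3 and 6.

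**Figure D1:**
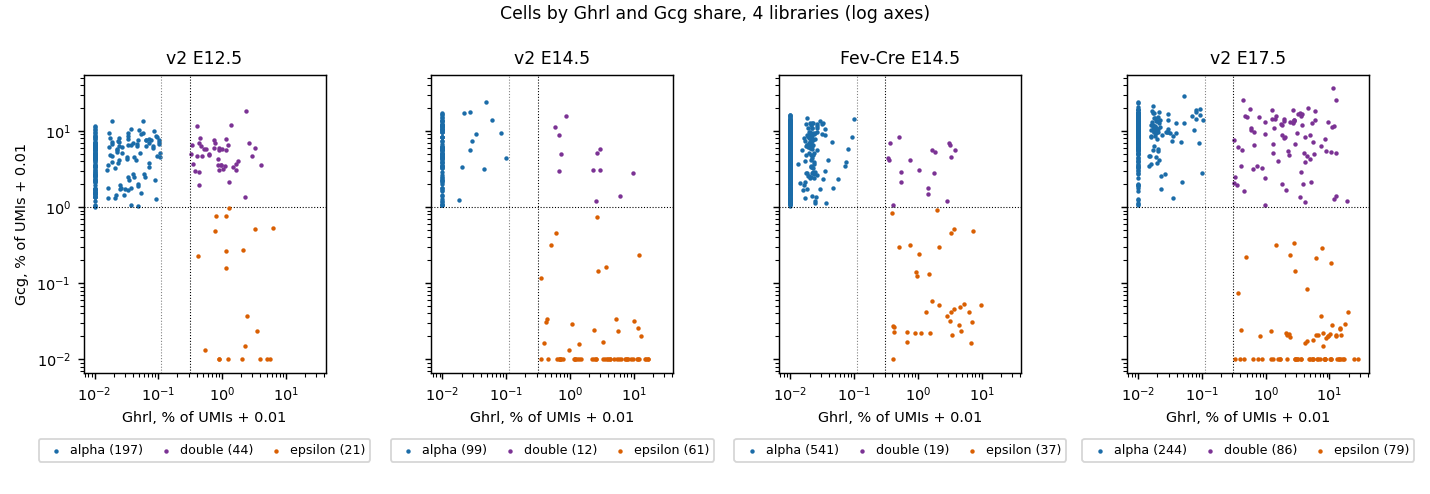
Share of UMIs from *Ghrl* and *Gcg* in each epsilon cell (orange), alpha cell (blue) and cell over both limits (purple), by library, on logarithmic axes with 0.01 added, and with the limits of the rule as dotted lines. The rule itself fixes where the groups lie, and the plot shows how they spread inside it, with epsilon cells reaching 28.2% *Ghrl* at E17.5.

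Depth was alike in the classes within a library. Median UMIs per epsilon and alpha cell were 10244 and 9162 (E12.5), 5221 and 6148 (E14.5), 7914 and 8903 (Fev-Cre), and 9335 and 11508 (E17.5). The summed UMIs of a class, without the 6 genes of the rule, ran from 270954 (epsilon, E12.5) to 4858382 (alpha, Fev-Cre), so the E12.5 epsilon values are the least precise. Mitochondrial genes took a median of 2.38% to 3.35% of UMIs in epsilon cells and 2.86% to 3.86% in alpha cells, and the median was lower in epsilon cells in 4 of 4 libraries. No barcode of a chosen cell was shared between libraries, in 13 pairs compared. Among defining markers that the rule did not use, *Mboat4* was higher in epsilon cells and *Ttr* higher in alpha cells in 4 of 4 libraries. Alpha markers did not all follow *Ttr*. *Gc* was higher in epsilon cells in 3 of 4 libraries and *Pou3f4* in 1 of 4, and neither was called by the test below. Both were named after their values were seen. *Ghsr*, the ghrelin receptor gene, had no UMI in either class.

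Levels below are in CPM. The UMIs of each gene were added up within class and library, leaving out the 6 genes of the rule, and scaled to 1e6 UMIs of that class. Fold changes are epsilon relative to alpha, from edgeR's quasi-likelihood test on the sums with library as a block, and adjusted p-values are Benjamini-Hochberg values over all genes tested. A call needed both an adjusted p under 0.05 and a 2-fold difference. Of 7364 genes tested, 143 (1.94%) were higher in epsilon cells and 158 (2.15%) were lower, 301 (4.09%) in all. Of the 301, 277 differed the same way in all 4 libraries. In 170 of them the 4 epsilon values did not overlap the 4 alpha values, where non-overlap with epsilon higher was found in 3.03% and with epsilon lower in 3.2% of all genes tested. At an unadjusted p below 0.05 there were 1762 genes. At an adjusted p under 0.05 with no limit on the fold, 422 were higher and 304 lower. The median log2 fold over all genes tested was 0.00. Without library as a block the counts were 52 and 35.

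**Figure D2:**
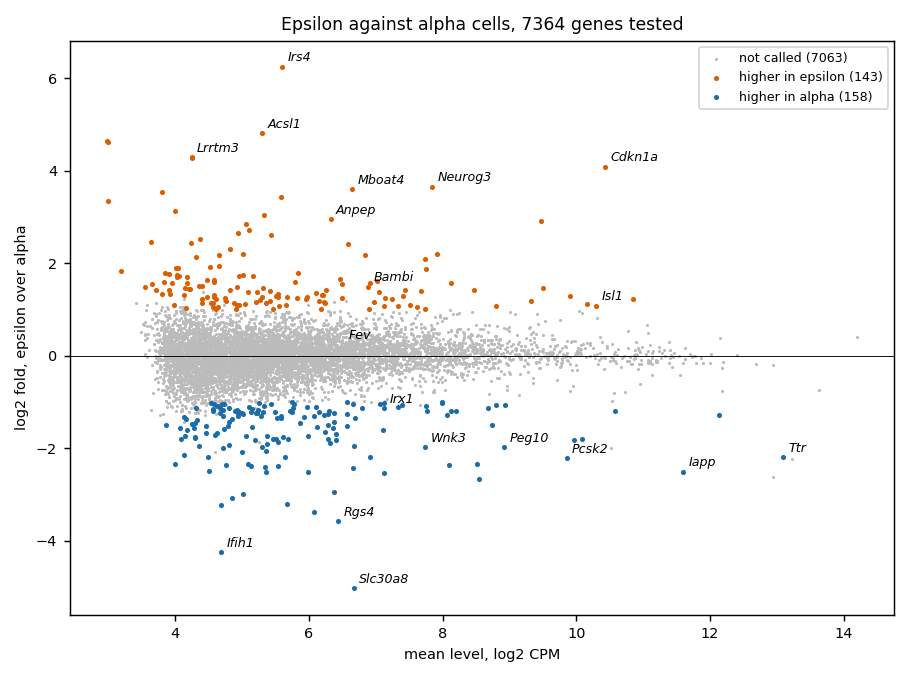
Log2 fold of epsilon over alpha cells against the mean level for the 7364 genes tested, 1 point per gene, with genes called higher (143) and lower (158) in color. *Irs4* and *Acsl1* stand at the top and *Slc30a8* at the bottom.

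Several genes with a known link to epsilon cells rose. Of 12 listed, 6 passed the filter on low counts, 5 of these rose and none fell, and the other 6 were too low to be tested. Of all genes tested, 1.94% were called higher and 2.15% lower. Genes near 0 in alpha cells, such as *Irs4* and *Acsl1*, passed that filter through the epsilon sums, so the count is a description. *Irs4* (ENSMUSG00000054667; X:141710998-141725263, minus strand) encodes an adaptor of insulin and growth factor receptors and stood at 148 CPM at E12.5, 141 at E14.5, 56.1 in Fev-Cre and 195 at E17.5 in epsilon cells. In alpha cells it stood at 5.55, 0, 0.617 and 0.381 CPM, where the 0 allows up to 4.13 CPM. Every epsilon value lay above every alpha value. The Fev-Cre epsilon value rests on 19 UMIs, of which a single cell held 52.6%. The means were 135 ± 57.7 and 1.64 ± 2.62 CPM (SD, n = 4 libraries), 82.4-fold apart, with a log2 fold of 6.24 ± 0.39 (SE, adjusted p = 1.58e-07). An *Irs4* UMI was found in 13 of 21, 31 of 61, 6 of 37 and 31 of 79 epsilon cells, and in 6 of 197, 0 of 99, 1 of 541 and 1 of 244 alpha cells. Mesenchymal cells held one in 0.531% to 4.92% and alpha cells in 0% to 3.05%. The source of these UMIs in either was not tested.

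*Acsl1* (ENSMUSG00000018796) encodes an enzyme that couples long-chain fatty acids to coenzyme A. Epsilon cells held 55.4, 152, 85.6 and 141 CPM and alpha cells 4.04, 1.38, 3.29 and 4.19, again without overlap. The means of 108 ± 45.7 and 3.22 ± 1.29 CPM (SD, n = 4 libraries) were 33.6-fold apart, with a log2 fold of 4.81 ± 0.28 (SE, adjusted p = 1.09e-07). *Mboat4* (ENSMUSG00000071113), the ghrelin acyltransferase gene, was counted at 114, 284, 183 and 289 CPM in epsilon cells and at 35.3, 16.5, 10.5 and 13.3 in alpha cells. The classes did not overlap, although the E12.5 library held the lowest epsilon and the highest alpha value. Its log2 fold was 3.60 ± 0.32 (SE, adjusted p = 4.19e-06). Thinned to 2000 UMIs per cell, *Mboat4* was detected in 23.8% to 32.8% of epsilon cells, 2.05% to 6.60% of alpha cells and no mesenchymal cell, and with all UMIs in 52.4% to 78.4%, 8.32% to 22.3% and at most 0.184%. *Anpep*, the gene of the peptidase aminopeptidase N, stood at 111, 198, 239 and 164 CPM against 22.2, 38.5, 18.5 and 19.8 (log2 fold 2.95 ± 0.22, adjusted p = 3.54e-07). *Arg1*, an arginase gene, rose as well (log2 fold 2.41, adjusted p = 1.09e-07), while *Spink1*, a trypsin inhibitor gene, had a log2 fold of 1.19 (adjusted p = 0.0893). Both were named after their values were seen.

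Some progenitor genes were higher in epsilon cells too. Of all genes tested, 1.94% were called higher and 2.15% lower. Of 20 listed, 16 were tested, 6 rose, none fell and 10 were not called, with a median log2 fold of 0.67. The 6 were *Cdkn1a*, *Neurog3*, *Btbd17*, *Cldn4*, *Sox4* and *Cck*, of which the last 2 were named after their values were seen. *Cdkn1a* (ENSMUSG00000023067; 17:29090976-29100727, plus strand) encodes the cell cycle inhibitor p21 and was the most abundant gene among the largest rises. Epsilon cells held 1978, 4063, 1328 and 3008 CPM and alpha cells 386, 161, 97.4 and 60.2. Each epsilon value exceeded all alpha values, and the alpha value was highest at E12.5. The means were 2594 ± 1199 and 176 ± 146 CPM (SD, n = 4 libraries), 14.7-fold apart, with a log2 fold of 4.08 ± 0.37 (SE, adjusted p = 4.82e-06). After thinning, a *Cdkn1a* UMI was found in 63.3% to 86.9% of epsilon cells, 7.38% to 36.5% of alpha cells and 1.66% to 4.25% of mesenchymal cells. None of 18 cell cycle genes tested passed the call rule in either direction (median log2 fold −0.22), where 4.09% of all genes tested did.

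*Neurog3* (ENSMUSG00000044312; 10:62133090-62134763, plus strand), whose protein sets off the endocrine program, stood at 354, 712, 174 and 619 CPM in epsilon cells. In alpha cells it stood at 32.8, 38.5, 33.3 and 25.9 CPM, below every epsilon value. The means of 465 ± 246 and 32.6 ± 5.17 CPM (SD, n = 4 libraries) were 14.2-fold apart, with a log2 fold of 3.65 ± 0.26 (SE, adjusted p = 2.42e-07). A UMI was seen in 8 of 21, 39 of 61, 12 of 37 and 27 of 79 epsilon cells and in 8 of 197, 5 of 99, 48 of 541 and 8 of 244 alpha cells. At E17.5 a single alpha cell held 83.8% of the alpha UMIs, and in Fev-Cre a single epsilon cell held 49.2% of the 59 epsilon UMIs. Thinned, *Neurog3* was detected in 16.2% to 39.3% of epsilon cells and 1.23% to 2.02% of alpha cells, against at most 1.66% of mesenchymal cells, near which the alpha shares lay.

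**Figure D3:**
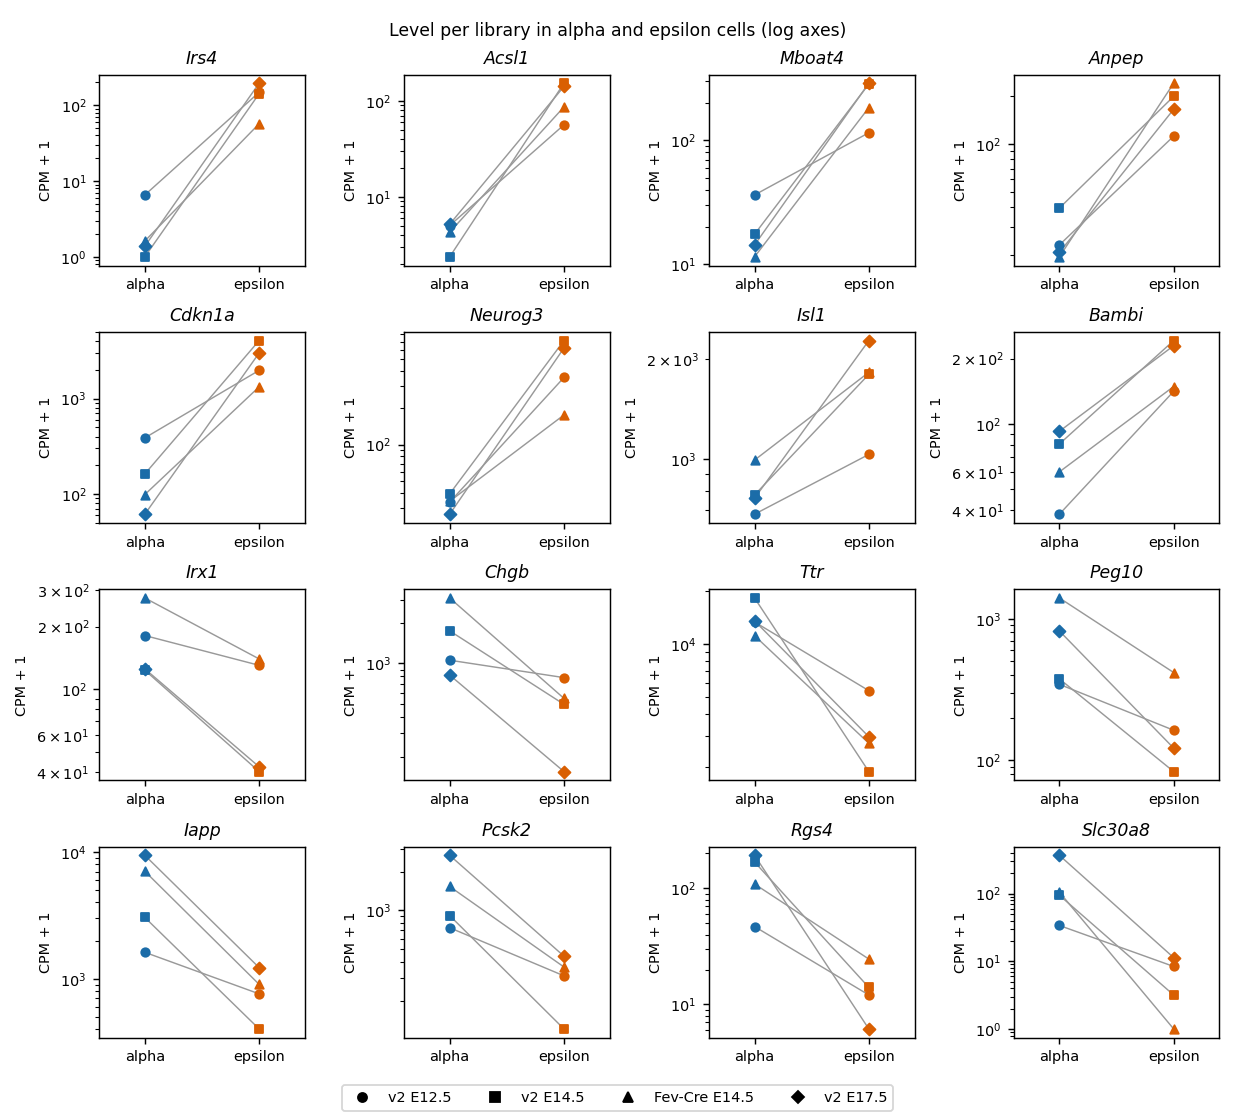
CPM of selected genes in epsilon and alpha cells, 1 point per library and class on a logarithmic axis, 1 added to each value, and with points of a library joined by a line. *Irs4*, *Cdkn1a* and *Neurog3* lie higher in epsilon cells in 4 of 4 libraries, and *Slc30a8* and *Iapp* lower in 4 of 4.

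Other progenitor genes moved less. *Btbd17*, which marks Ngn3+ cells, stood at 125, 221, 124 and 134 CPM against 75.2, 53.6, 39.1 and 30.8 (log2 fold 1.66 ± 0.20, adjusted p = 6.81e-05). *Cldn4*, a tight junction gene, stood at 88.6, 367, 334 and 251 CPM against 57.0, 135, 110 and 109, and overlapped only through the low E12.5 value (log2 fold 1.30 ± 0.15, adjusted p = 3.83e-05). *Sox4* and *Cck* had log2 folds of 1.16 and 1.08. *Fev* was not called, with 59.1, 97.7, 289 and 20.6 CPM in epsilon cells and 78.2, 79.8, 133 and 39.6 in alpha cells (log2 fold 0.24 ± 0.25, adjusted p = 0.616). Its direction turned without the Fev-Cre library, to a log2 fold of −0.30. *Pax4*, which opposes the alpha fate in progenitors, was too low to be tested, at 7.38, 23.9, 8.86 and 16.8 CPM in epsilon cells and 5.55, 5.50, 6.79 and 2.29 in alpha cells.

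Several further genes were among the 12 largest rises. *Lrrtm3*, a synapse adhesion gene, stood at 40.6, 43.4, 62.0 and 82.5 CPM against 3.53, 1.38, 2.68 and 3.81 (log2 fold 4.29 ± 0.31, adjusted p = 3.15e-07). *Arhgap22*, a GTPase-activating gene, stood at 22.1, 54.3, 20.7 and 19.3 CPM against 4.04, 0, 0.206 and 0, and *R3hdml* at 48.0, 32.6, 35.4 and 14.2 against 4.04, 0, 1.03 and 0. The zeros at E14.5 and E17.5 allow up to 4.13 and 1.14 CPM. *Cer1*, which encodes a secreted inhibitor of Nodal and BMP, reached 135 CPM in E14.5 epsilon cells and 22.1 to 50.3 CPM in the other libraries, against 0.381 to 4.54 in alpha cells. *Pcp4*, a calmodulin regulator gene, stood at 96.0, 117, 32.5 and 196 CPM against 12.6, 4.13, 3.29 and 17.9 (log2 fold 3.43 ± 0.24, adjusted p = 2.42e-07). *St8sia2*, a polysialyltransferase gene, and *Olfml3* completed the 12, with log2 folds of 3.55 ± 0.36 and 3.33 ± 0.57. None of the 12 overlapped between classes, where non-overlap with epsilon higher was found in 3.03% of all genes tested. The 12 were chosen from these data for large folds that went the same way in all 4 libraries. *Lrrtm3*, *Arhgap22*, *R3hdml* and *Cer1*, near 0 in alpha cells, passed the filter on low counts through the epsilon sums. The non-overlap is therefore a description.

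Many alpha cell genes were lower in epsilon cells. Of 20 listed, 16 were tested and 9 fell, none rose, and the median log2 fold was −1.16. Among all genes tested, 2.15% were called lower and 1.94% higher. The study named *Peg10*, *Smarca1*, *Auts2* and *Wnk3* for its alpha branch from the Fev-Cre library. The count is therefore a description and no separate test of the list. *Ttr* (ENSMUSG00000061808), the transthyretin gene, stood at 5418, 1880, 2722 and 2965 CPM in epsilon cells and at 13304, 18214, 11122 and 13507 in alpha cells. The means of 3246 ± 1521 and 14037 ± 2987 CPM (SD, n = 4 libraries) differed 4.32-fold without overlap, with a log2 fold of −2.19 ± 0.23 (SE, adjusted p = 1.74e-05). *Peg10*, an imprinted gene of retrotransposon origin, stood at 162, 82.5, 416 and 121 CPM against 344, 375, 1401 and 819, lower in each library although the Fev-Cre epsilon value exceeded 2 alpha values (log2 fold −1.98 ± 0.20, adjusted p = 1.11e-05). *Wnk3*, a kinase gene, stood at 84.9, 49.9, 145 and 58.0 against 252, 263, 381 and 335 (log2 fold −1.98 ± 0.18, adjusted p = 4.89e-06), and *Slc7a2*, a cationic amino acid transporter gene, at 40.6, 15.2, 35.4 and 51.6 against 99.9, 86.6, 101 and 246 (log2 fold −1.96 ± 0.21, adjusted p = 1.99e-05). *Sphkap*, *Smarca1* and *Tmem27*, named after their values were seen, fell with log2 folds of −1.60, −1.29 and −1.20.

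The Iroquois transcription factor genes of the alpha cell list were also measured. *Irx1* stood at 129, 39.1, 139 and 41.3 against 180, 122, 274 and 124 (log2 fold −1.13 ± 0.18, adjusted p = 0.000755), and its log2 fold was −0.99 without E17.5, just under the limit on the fold. *Irx2* stood at 125, 30.4, 286 and 72.2 against 188, 107, 318 and 128 (log2 fold −0.68 ± 0.19, adjusted p = 0.0313) and was not called.

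Some genes of beta cells that alpha cells also held were lower in epsilon cells. Cells with 1% or more insulin UMIs had been left out of both classes. Of 22 listed genes, 16 were tested, 5 fell and none rose, with a median log2 fold of −0.36. Of all genes tested, 2.15% were called lower and 1.94% higher. *Slc30a8* and *G6pc2*, near 0 in epsilon cells, passed the filter on low counts through the alpha sums, so the count is a description. *Slc30a8* (ENSMUSG00000022315; 15:52295553-52335798, plus strand) encodes the transporter that loads zinc into secretory granules. Epsilon cells held 7.38, 2.17, 0 and 10.3 CPM, where the 0 allows up to 8.86, and alpha cells held 32.8, 93.5, 104 and 367. No epsilon value reached an alpha value, and the alpha value was highest at E17.5. The means of 4.97 ± 4.72 and 149 ± 148 CPM (SD, n = 4 libraries) were 30.0-fold apart, with a log2 fold of −5.03 ± 0.34 (SE, adjusted p = 2.02e-07). A UMI was found in 1 of 21, 1 of 61, 0 of 37 and 5 of 79 epsilon cells and in 47 of 197, 38 of 99, 253 of 541 and 208 of 244 alpha cells.

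*Iapp* (ENSMUSG00000041681; 6:142298423-142303961, plus strand), the islet amyloid polypeptide gene whose promoter is printed above, stood at 760, 402, 903 and 1225 CPM in epsilon cells and at 1617, 3046, 7042 and 9408 in alpha cells. The classes did not overlap, and at E12.5 a single epsilon cell held 58.3% of the 206 epsilon UMIs. The means were 822 ± 341 and 5278 ± 3585 CPM (SD, n = 4 libraries), 6.42-fold lower in epsilon cells, with a log2 fold of −2.51 ± 0.25 (SE, adjusted p = 1.11e-05). Beta cells of the same libraries, those with 1% or more insulin UMIs, held 12786 CPM at E14.5, 25694 in Fev-Cre and 50858 at E17.5. *G6pc2*, a glucose-6-phosphatase gene of islets, stood at 3.69, 8.68, 5.90 and 0 CPM against 24.7, 35.8, 61.1 and 20.2 (log2 fold −3.08 ± 0.45, adjusted p = 0.000308). *Ppp1r1a*, a phosphatase inhibitor gene, had a log2 fold of −2.20 ± 0.24 (adjusted p = 2.22e-05), and *Papss2*, a sulfate donor synthase gene named after its value was seen, one of −2.19. *Pdx1* and *Nkx6-1*, transcription factor genes of beta cells named after their values were seen, were not called, with log2 folds of 0.06 and −0.63. *Gng12*, a G protein subunit gene, had a log2 fold of −0.15 (adjusted p = 0.687), which was 0.21 in thinned cells.

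Genes for cutting and packing prohormones differed in part. Of 18 listed, 15 were tested, 5 fell and none rose, with a median log2 fold of −0.50, where 2.15% of all genes tested were called lower and 1.94% higher. *Pcsk2*, the convertase that cuts proglucagon to glucagon, stood at 310, 119, 363 and 441 CPM in epsilon cells and at 734, 912, 1534 and 2678 in alpha cells, without overlap (log2 fold −2.22 ± 0.20, adjusted p = 4.19e-06). *Resp18*, which encodes a granule protein, stood at 66.4, 43.4, 145 and 81.2 against 191, 439, 333 and 694 (log2 fold −2.36 ± 0.27, adjusted p = 4.13e-05). *Chgb*, the chromogranin B gene, stood at 782, 493, 546 and 153 against 1057, 1757, 3104 and 818 (log2 fold −1.80 ± 0.25, adjusted p = 0.000183). *Cpd*, a carboxypeptidase gene, had a log2 fold of −1.24 ± 0.31 (adjusted p = 0.0170) and lost the call without E14.5 (adjusted p = 0.0558) or without E17.5 (adjusted p = 0.172). *Scg5*, which encodes the chaperone of the *Pcsk2* product and was named after its value was seen, fell with a log2 fold of −1.06. *Pcsk1*, the other main convertase gene, had a log2 fold of 1.1 (adjusted p = 0.0744). *Scg2* (log2 fold 0.99, adjusted p = 0.0123) and *Scgn* (0.52, adjusted p = 0.0207), a granin and a calcium sensor gene named after their values were seen, passed the adjusted p in the higher direction but not the limit on the fold. *Pcsk1n* (−0.98, adjusted p = 0.00113) and *Cpe* (−0.80, adjusted p = 0.000949), a convertase inhibitor and a carboxypeptidase gene named in the same way, did so in the lower direction. Of 20 tested exocytosis genes only *Ptprn* and *Syt13* were called, with log2 folds of −1.20 and −1.11, and of 7 tested ion channel genes none, where 4.09% of all genes tested were called.

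The remaining genes with the largest falls belong to varied systems. *Rgs4*, an inhibitor of G protein signaling, stood at 11.1, 13.0, 23.6 and 5.16 CPM against 45.9, 168, 108 and 192 (log2 fold −3.58 ± 0.34, adjusted p = 8.26e-06). *Ifih1*, a sensor of double-stranded RNA, stood at 0, 0, 2.95 and 2.58 CPM against 33.3, 19.3, 32.7 and 39.6 (log2 fold −4.25 ± 0.50, adjusted p = 5.22e-05), the zeros allowing up to 11.1 and 6.51 CPM. *Edn3*, an endothelin gene, stood at 44.3, 13.0, 14.8 and 5.16 against 105, 103, 117 and 139 (log2 fold −2.94 ± 0.35, adjusted p = 5.06e-05). *Ffar1*, a fatty acid receptor gene, stood at 11.1, 4.34, 2.95 and 5.16 against 20.7, 26.1, 38.1 and 70.8 (log2 fold −3.00 ± 0.41, adjusted p = 0.000184). None of these 4 overlapped between classes, where non-overlap with epsilon lower was found in 3.2% of all genes tested. They were chosen from these data for their large folds, so this is a description. *Ifih1* and *Ffar1*, low in epsilon cells, passed the filter on low counts through the alpha sums. *Spink4*, *Skap1*, *Il1r1* and *Map3k15* had log2 folds of −3.38, −3.23, −3.21 and −2.52. *Tmsb15b2* and *Tmsb15l*, with −2.67 and −2.55, are near copies of each other, so how their reads were split is uncertain.

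**Figure D4:**
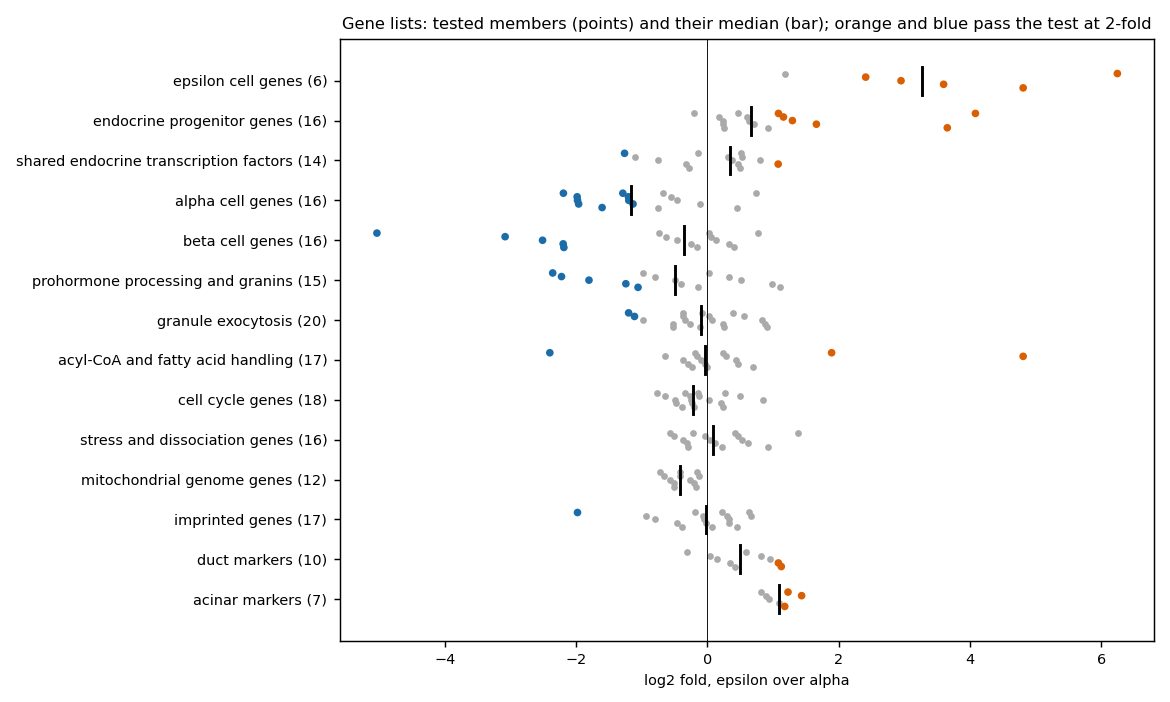
Log2 fold of epsilon over alpha cells for the tested members of each gene list, 1 point per gene and a bar at the median, with members that pass the test at 2-fold in orange (higher) and blue (lower). Progenitor genes center on 0.67 and alpha cell genes on −1.16, where all genes center on 0.00.

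Of 14 tested transcription factors shared by endocrine cells, 1 was called higher and 1 lower, where 4.09% of all genes tested were called, and their median log2 fold was 0.35. *Isl1*, needed for endocrine maturation, stood at 1030, 1802, 1827 and 2280 CPM in epsilon cells and 678, 776, 990 and 758 in alpha cells, without overlap (log2 fold 1.08 ± 0.15, adjusted p = 0.000182). Without E17.5 its log2 fold was 0.87, under the limit on the fold. *Insm1*, a zinc finger gene, stood at 22.1, 69.5, 41.3 and 25.8 against 81.7, 94.9, 143 and 65.5 (log2 fold −1.26 ± 0.22, adjusted p = 0.00170). Of 5 delta and gamma cell genes tested (median log2 fold −0.75) 1 fell and none rose. This was *Etv1*, at 96.0, 106, 239 and 232 against 274, 285, 390 and 567 CPM (log2 fold −1.20 ± 0.14, adjusted p = 5.41e-05). *Sst*, the somatostatin gene, was not tested and had 0, 1, 40 and 3115 UMIs in epsilon cells, where at E17.5 a single cell held 51.3% of them. It was named after its values were seen.

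Signaling genes gave calls in both directions, read here beside the 4.09% of all genes tested that were called. Of 12 tested members of the Notch, Wnt, BMP and Hippo list, *Bambi*, a decoy receptor for BMP and TGF-beta, rose, at 140, 241, 148 and 228 CPM against 37.3, 79.8, 59.1 and 91.4 (log2 fold 1.49 ± 0.14, adjusted p = 9.04e-06). Of 6 tested receptors *Cckar*, for cholecystokinin, rose (22.1, 62.9, 23.6 and 21.9 CPM against 7.57, 19.3, 5.97 and 6.09) and *Ffar1* fell. Of 12 tested insulin and growth factor genes *Irs4* rose and *Igfbp7* fell (log2 fold −1.86 ± 0.24, adjusted p = 0.000131). The receptor genes *Avpr1b* (mean 39.3 against 0.926 CPM) and *Galr1* (11.7 against 0.859), and the transcription factor gene *Neurod2* (19.9 against 0.396), did not pass the filter on low counts, were not tested and were named after their values were seen. Of 10 tested adhesion genes *Lrrtm3* and *Cldn4* rose. *Cckar*, *Irs4* and *Lrrtm3*, low in alpha cells, passed the filter on low counts through the epsilon sums, and *Ffar1* through the alpha sums. The counts of this paragraph are therefore a description.

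Among genes of fatty acid handling, 2 of 17 tested rose and 1 fell, where 1.94% of all genes tested were called higher and 2.15% lower. The same shares apply to the transporter and amine genes below. These were *Acsl1*, *Acot7*, an acyl-CoA thioesterase gene (22.1, 23.9, 59.0 and 19.3 CPM against 28.8, 8.25, 4.94 and 3.05, log2 fold 1.89 ± 0.50, adjusted p = 0.0237), and *Lpl*, the lipoprotein lipase gene (log2 fold −2.40 ± 0.31, adjusted p = 9.86e-05). *Acot7* was lower in epsilon cells at E12.5 and lost the call without E14.5 (adjusted p = 0.0558), Fev-Cre (0.210) or E17.5 (0.0671). Genes low in 1 class could pass the filter on low counts through the other, as *Acsl1* and *Acot7* did through the epsilon sums. The counts of these lists are therefore a description. Of 12 tested transporters, *Slc38a1* (glutamine; log2 fold 1.75 ± 0.29) and *Slc2a1* (glucose; 1.93 ± 0.54, adjusted p = 0.0326) rose, while *Slc7a2*, *Slc16a10* (aromatic amino acids; −1.83 ± 0.23) and *Slc7a14* (−1.42, named after its value was seen) fell. *Slc2a1* rested on E12.5, with 236 CPM in 11 of 21 epsilon cells there and 14.2 to 26.0 CPM in the other epsilon sums, and without that library its log2 fold was 0.49 (adjusted p = 0.468), and without E14.5 its adjusted p was 0.0507. Of 5 tested amine genes, *Maob*, an amine oxidase gene, fell (log2 fold −2.39 ± 0.42, adjusted p = 0.00142), and *Th*, the tyrosine hydroxylase gene, rose with 36.9, 21.7, 41.3 and 42.5 CPM against 47.4, 2.75, 14.0 and 3.43 (log2 fold 1.58 ± 0.46, adjusted p = 0.0425). *Th* lost the call without E14.5 (adjusted p = 0.104), Fev-Cre (0.111) or E17.5 (0.296). *Peg10* was the single call among 17 imprinted genes tested. None was called among 16 stress and dissociation genes (median log2 fold 0.08) or 12 mitochondrial genes (−0.41). Of the mitochondrial genes, 5 passed the adjusted p as lower, under the limit on the fold. The share called over all genes tested was 4.09%.

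Markers of other cell types were measured in both classes. Beside the counts of calls below, 1.94% of all genes tested were called higher and 2.15% lower. Of 7 acinar markers tested, 3 were called higher in epsilon cells (*Ptf1a*, *Ctrb1* and *Cpa1*) and 4 were not called, with a median log2 fold of 1.09. Their summed level was 1119 to 12991 CPM against 1115 to 5232, higher in epsilon cells in 4 of 4 libraries. In Fev-Cre the sums were 1119 and 1115. The median epsilon and alpha cell held 10 and 5 acinar UMIs (E12.5), 4 and 4 (E14.5), 6 and 5 (Fev-Cre), and 11 and 12 (E17.5), and a single cell held 18.1% to 31.8% of the acinar UMIs of each epsilon sum. *Ptf1a* lost the call without E14.5 (adjusted p = 0.0621), *Ctrb1* without E12.5 or E17.5 (0.210 and 0.219) and *Cpa1* without any 1 of the Swiss Webster libraries (adjusted p of 0.119 and 0.0538, and a log2 fold of 0.72 in the last). Cells with 1% or more acinar UMIs numbered 1 of 21, 9 of 61, 0 of 37 and 8 of 79 among epsilon cells. Among alpha cells they numbered 1 of 197, 7 of 99, 3 of 541 and 5 of 244. Of 10 duct markers *Cldn10* and *Anxa2* were called higher, with summed levels of 1960 to 3024 CPM against 1280 to 3095. *Cldn10* lost the call without E12.5 (adjusted p = 0.0644) or E17.5 (0.221), and *Anxa2* fell under the limit on the fold without Fev-Cre (log2 fold 0.89). Immune markers summed to 26.6 to 59.3 CPM against 56.2 to 353, with *Ptprc* and *Cd52* at 0 in epsilon cells, and the 1 tested, *C1qa*, was called lower (log2 fold −1.13, adjusted p = 0.012) but not without E12.5 (log2 fold −0.93, adjusted p = 0.0625) or without E17.5 (−0.96). Mesenchymal markers summed to 28.4 to 103 CPM against 53.7 to 110, endothelial markers to 0 to 7.38 against 2.68 to 37.3, and glial markers to 3.87 to 50.2 against 11 to 50.5. Hemoglobin and erythroid genes summed to 0 to 75697 CPM against 3.70 to 41751, with the sum higher in epsilon cells in 1 of 4 libraries, a median log2 fold of −2.11 and none of 4 called. With the cells left out that held 1% or more such UMIs, duct markers aside, 137 genes were higher and 145 lower, and 50 of the 60 named genes called were tested again, of which *Cldn10*, *Ctrb1* and *Cpa1* lost the call. *Ptf1a* was among the 10 that no longer passed the filter on low counts.

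To place these differences among other *Chga*+ cells, epsilon cells were also set against 5289 cells called hormone-low here. These were *Chga*+ cells that held less than 0.1% *Ghrl*, 1% *Gcg* and 1% insulin. Alpha cells, beta cells and cells over both limits are thus not among them. This comparison uses the same epsilon sums as the first one. Of 11393 genes tested, 365 (3.2%) were higher and 685 (6.01%) lower in epsilon cells, 9.22% in all. The hormone-low cells are mixed, and 9 of 9 tested acinar markers and 19 of 20 cell cycle genes were lower in epsilon cells. Markers of the other cell types above, duct markers aside, took 1% or more of UMIs in many hormone-low cells. These numbered 83 of 592 (E12.5), 322 of 1032 (E14.5), 271 of 2218 (Fev-Cre) and 677 of 1447 (E17.5). The median *Chga* count was 1, 3, 7 and 2 UMIs in the same order. *Neurog3* stood at 246, 248, 180 and 548 CPM in hormone-low cells, and the difference did not pass the test (log2 fold 0.42, adjusted p = 0.158). *Pax4*, too low for the test against alpha cells, was lower in epsilon cells than in hormone-low cells, which held 52.5, 69.3, 42.7 and 54.3 CPM (log2 fold −2.02, adjusted p = 8.08e-06).

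For the counts below, 3.2% of all genes tested against hormone-low cells were called higher in epsilon cells and 6.01% lower. Genes low in 1 group, such as *Irs4* in hormone-low cells, could pass the filter on low counts through the other group. The counts are therefore a description. Of 7 epsilon cell genes tested against hormone-low cells, 5 were higher in epsilon cells and 2, *Spink1* and *Frzb*, were lower. The last was named after its value was seen. *Irs4* stood at 4.59, 3.05, 0.533 and 2.36 CPM there (log2 fold 5.68, adjusted p = 2.64e-11) and *Mboat4* at 7.71, 12.3, 8.67 and 12 (log2 fold 4.25, adjusted p = 1.70e-12). *Cdkn1a* stood at 303, 355, 214 and 194 CPM (log2 fold 3.07, adjusted p = 4.59e-10). Both Iroquois genes were also far above the hormone-low level in epsilon cells. *Irx1* stood at 13.5, 4.89, 23.8 and 1.88 CPM in hormone-low cells (log2 fold 3.07, adjusted p = 1.34e-07) and *Irx2* at 15.3, 7.23, 47.3 and 2.78 (log2 fold 2.95, adjusted p = 3.17e-07). *Isl1* had a log2 fold of 2.44. Of 18 alpha cell genes tested, 7 were higher in epsilon cells and none lower. *Ttr*, at 1542, 3142, 2692 and 1272 CPM in hormone-low cells, had a log2 fold of 0.43 (adjusted p = 0.281), and *Chgb* was lower in epsilon cells here too (log2 fold −2.60, adjusted p = 5.05e-08). *Slc30a8*, at 1.63, 20.8, 17 and 47.1 CPM in hormone-low cells, was also lower in epsilon cells (log2 fold −2.48, adjusted p = 0.00117). *Iapp* and *Rgs4* gave no call, with log2 folds of −0.47 and −0.23, whereas *Wnk3* was higher in epsilon cells than in hormone-low cells (log2 fold 1.24, adjusted p = 8.82e-05).

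Cells over both limits, with 0.3% or more *Ghrl* and 1% or more *Gcg*, belonged to neither class. They made up 44 of 65 *Ghrl*+ cells at E12.5 (67.7%, exact 95% binomial interval 54.9 to 78.8), 12 of 73 at E14.5 (16.4%, 8.79 to 27.0), 19 of 56 in Fev-Cre (33.9%, 21.8 to 47.8) and 86 of 165 at E17.5 (52.1%, 44.2 to 59.9). Intervals here cover counting error only, with 1 pool per library and no call of doublets, so pairs of cells caught together were not set apart. In the summed double cells *Cdkn1a* stood at 516, 133, 196 and 144 CPM, *Neurog3* at 15.5, 0, 22.4 and 0, and *Irs4* at 28.8, 0, 5.59 and 1.09, all nearer the alpha than the epsilon level. The zeros at E14.5 and E17.5 allow up to 39.9 and 3.26 CPM. *Slc30a8* stood at 48.7, 120, 33.5 and 188 CPM and *Ttr* at 31493, 19944, 6398 and 14790, both above the epsilon level in 4 of 4 libraries. *Mboat4* stood at 46.5, 13.3, 72.6 and 18.5 CPM. These values were not tested.

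A slope of the log2 ratio of epsilon to alpha cells over embryonic day asked which differences changed with stage. With edgeR's quasi-likelihood test and Benjamini-Hochberg adjustment 17 genes rose and 6 fell with day, 23 of 7364 (0.312%), and 616 had an unadjusted p below 0.05. The ratio of *Cdkn1a* was 2.36 at E12.5, 4.65 at E14.5, 3.77 in Fev-Cre and 5.64 at E17.5 on the log2 scale, a slope of 0.65 per day (adjusted p = 0.000350), and its alpha level was lower at each later stage. *Mdk*, the midkine growth factor gene, had ratios of 0.26, 1.30, 1.13 and 2.57 (slope 0.47, adjusted p = 0.000143), and *Pcsk1* went from −1.26 to 2.72 (slope 0.77, adjusted p = 0.00324). *Peg10* had a slope of −0.32 and ratios of −1.07, −2.17, −1.75 and −2.75. Among the 17 were also *Hba-a2* and *Hbb-bt*, hemoglobin genes whose direction turned without E17.5. These genes were named for passing the test.

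The slopes rest on a single library at E12.5 and at E17.5. Fits with 1 library left out have little or no spread between pools of a stage to measure. A higher count of calls there is therefore no firmer result. Without E17.5 the counts were 1 rise, *Cdkn1a* (slope 0.92, adjusted p = 0.0446), and 5 falls, and without E12.5 they were 24 and 22, with 9 of the 23 genes still called, *Cdkn1a*, *Mdk* and *Pcsk1* among them. Without E14.5 there were 44 and 45, and without Fev-Cre 65 and 46.

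**Figure D5:**
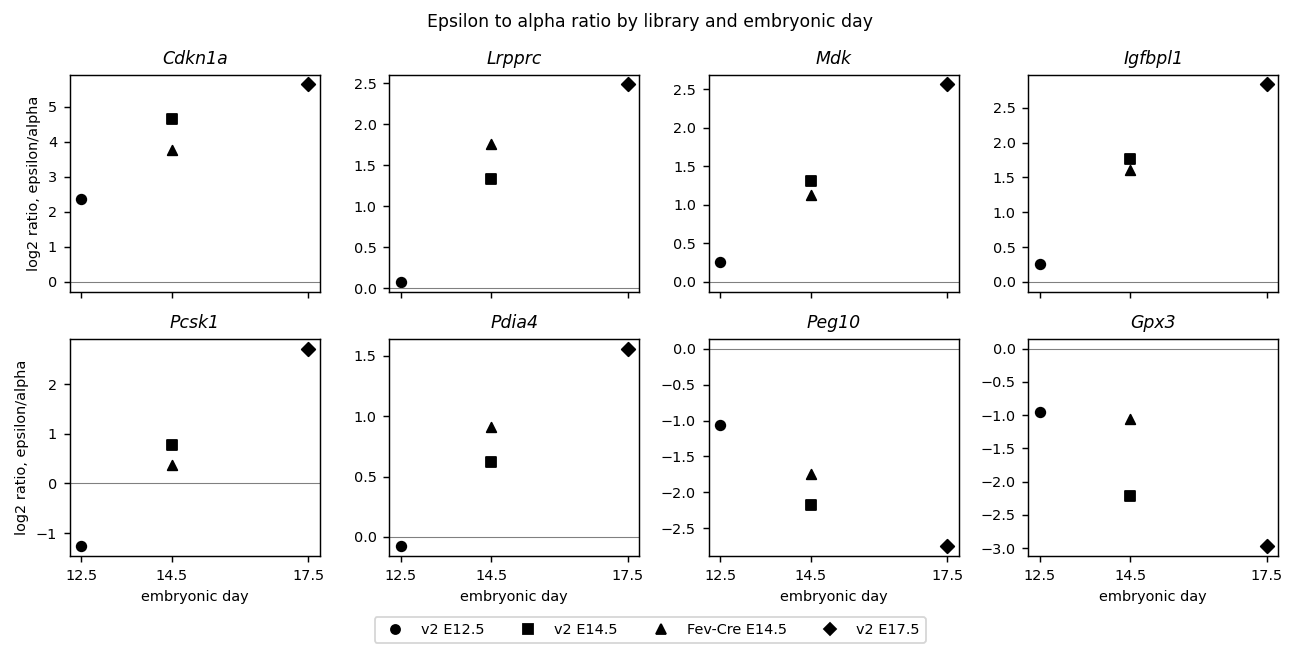
Log2 ratio of epsilon to alpha CPM against embryonic day for genes whose ratio changed with day, 1 point per library. The ratio of *Cdkn1a* lies above 2 at E12.5 and above 5 at E17.5, and that of *Peg10* goes from −1.07 to −2.75.

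The version 1 libraries, made with another kit from other litters, had too few cells for the comparison above, and the direction of its calls was looked up in them, as a choice made after the data had been seen. Of the genes called above and holding 10 or more UMIs there, 101 of 120 higher genes (84.2%) and 135 of 145 lower genes (93.1%) had the same sign, 236 of 265 in all (89.1%), against 3559 of 6354 (56%) among genes not called. The version 1 sums hold 34 epsilon and 101 alpha cells. *Irs4* (log2 fold 4.61), *Cdkn1a* (4.17), *Neurog3* (5.41) and *Slc30a8* (−4.86) had the same sign there.

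In Fev-Cre the reporter transcript shows whether a cell or its ancestors had made Cre. After thinning to 2000 UMIs, *eGFP* was found in 26 of 37 epsilon cells (70.3%, exact 95% binomial interval 53.0 to 84.1) and in 501 of 541 alpha cells (92.6%, 90.1 to 94.7). With all UMIs it was found in 33 of 37 (89.2%, 74.6 to 97.0) and 540 of 541 (99.8%). Mesenchymal cells gave a background of 4.15% thinned and 12.9% with all UMIs. *Chga*+ cells below the hormone limits held *eGFP* in 63.5% thinned and 73.7% with all UMIs. In tissue sections of this line at E14.5, the study found the GFP label in all alpha cells counted but in a minority of epsilon cells. Those counts used stained protein in unsorted tissue, a measure unlike this one. The median epsilon cell held 9 *eGFP* UMIs and the median alpha cell 15, at median depths of 7914 and 8903 UMIs. The sort enriched GFP+ cells, and cells without GFP were added in larger number. With 1 library the difference between classes was not tested.

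Epsilon cells made up 2.35% of *Chga*+ cells at E12.5 (21 of 895, exact 95% binomial interval 1.46 to 3.56), 4.23% at E14.5 (61 of 1443, 3.25 to 5.4), 1.14% in Fev-Cre (37 of 3244, 0.804 to 1.57) and 2.99% at E17.5 (79 of 2641, 2.38 to 3.71). In the version 1 libraries 4 of the *Chga*+ cells at E12.5 were epsilon cells (4.12%), 4 and 9 in the batches of E14.5 (1.41% and 3.10%) and 17 at E17.5 (6.80%). Sorts differed between these libraries, and with 1 pool each the shares were not tested against each other.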

How the data were processed

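Single-cell RNA-seq (10x Genomics) was read as UMI counts per gene and cell, whole numbers that the authors deposited without normalization. Cell Ranger 1.1 and 2.1 are named in the submitters' processing notes. The version 2 tables share 27998 genes, which were used, and 27716 of these are also in the version 1 tables. Of the Fev-Cre matrices, the one with reporter genes was used. Members, gene lists and tests were chosen with earlier results of these data known.

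UMIs were summed per library and class without the 6 genes of the rule, and tested with edgeR 4.0.16 in R 4.3.3 (TMM, filterByExpr with a count minimum of 10, quasi-likelihood test, library as block, Benjamini-Hochberg adjustment). The classes of a library share a suspension, and their deviations correlated at 0.493 to 0.582 within libraries and at most −0.063 between them. Named genes were the 12 largest called changes in each direction that moved the same way in every library, up to 4 called members per list, and 12 genes fixed by name. Shares of cells were also taken after thinning to 2000 UMIs (seed 1), which left out no cell of the classes. Intervals are exact binomial. No doublet caller was run, and cells over both hormone limits were left out by rule. Mesenchymal cells had no *Chga* or *Epcam* UMI and 5 or more *Col3a1* UMIs. Gene coordinates are GRCm38 (GENCODE M21), not the annotation the counts were made with. The scripts were tested on simulated data. Alternatives included DESeq2 1.42.0, other filters and gates, and leaving out each library. Some of the genes fixed by name are not reported here.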

Additional observations from a re-analysis of the deposited data

Results flagged for a closer look

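Among 64 named genes tested, 4 had a log2 ratio of epsilon to alpha cells at E12.5 that lay apart from the other 3 libraries. Chance alone sets about 1 in 20 groups apart, and 4 of 64 lies near that share. *Arhgap22* had a ratio of 2.48 at E12.5 and 6.16 to 6.71 elsewhere, *Lrrtm3* 3.49 against 4.38 to 4.51, *Mboat4* 1.71 against 4.05 to 4.42, and *Iapp* −1.09 against −2.96 to −2.92. Alpha cells held no *Arhgap22* UMI at E14.5 and E17.5, which allows up to 4.13 and 1.14 CPM. Its ratios there depend on the 0.5 UMIs added to each count, so the gap to E12.5 is uncertain. In each of the 4 genes the E12.5 library showed the smallest difference between the classes. That library also held the fewest epsilon cells (21). Of these, 11 held less than 0.1% *Gcg*, against 54 of 61 at E14.5, 25 of 37 in Fev-Cre and 71 of 79 at E17.5. For *Iapp*, a single E12.5 epsilon cell held 58.3% of the 206 UMIs behind the epsilon level. The part of these values in the smaller differences was not tested.

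The difference between classes changed with embryonic day for 3 named genes, by the slope of the log2 ratio in edgeR. These were *Cdkn1a* (0.65 per day, adjusted p = 0.000350), *Th* (0.79, adjusted p = 0.0337) and *Peg10* (−0.32, adjusted p = 0.0409). The slopes of *Th* and *Peg10* lost the call without E12.5 (adjusted p of 0.634 and 0.174) and without E17.5 (0.969 for both), while that of *Cdkn1a* passed the test without either. Day, pool and digestion time cannot be told apart here.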

How the results depend on the processing

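The counts of 143 genes higher and 158 lower in epsilon cells moved by under 1.5 times with RLE scaling (146 and 154), a stricter epsilon gate (183 and 217, over 3 libraries, since E12.5 then had under 10 epsilon cells), a stricter alpha gate (148 and 151) and cells free of other types' markers (137 and 145). They moved further with no limit on the fold (422 and 304), no filter on low counts (221 and 422), cells thinned to 2000 UMIs (45 and 51 of 2725 tested), the version 1 libraries with 4 or more cells a side (18 and 12 of 944) and all 8 libraries (55 and 76 of 3757). DESeq2 gave 103 lower. Leaving out 1 library gave 106 to 163 higher and 110 to 184 lower.

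Without library as a block the counts were 52 and 35, and against hormone-low cells 91 and 32 in place of 365 and 685. Of the 60 named genes called, 29 lost the call without the block, 6 with DESeq2 and 9 of 56 without E17.5.

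Against hormone-low cells, leaving out 1 library gave 315 to 395 higher and 424 to 827 lower, and cells free of other types' markers 428 lower. Slopes over day, 17 rising and 6 falling, came to 69 and 39 without a filter, 1 to 65 and 5 to 46 with 1 library left out (24 and 22 without E12.5), 15 falling with E17.5 set against earlier stages, and 9 rising with all 8 libraries. The direction turned for *Cpa1* (−1.75, version 1), *Fev* (−0.30 without Fev-Cre, up to 0.52 without another library and 0.40 without E12.5), *Gng12* (0.21, thinned), and the slopes of *Hbb-bt* (−1.30) and *Hba-a2* (−1.13) without E17.5. The cause of these changes was not tested. *eGFP* was found in 89.2% of epsilon and 99.8% of alpha cells with all UMIs and, thinned and at 2 UMIs, in 56.8% and 82.3%. Of all cells, epsilon cells were 0.159%, 0.671%, 0.469% and 0.619%, and with the stricter gate 0.894%, 2.91%, 0.555% and 2.35% of *Chga*+ cells. Version 1 libraries alone at 10 cells a side and a term for the kit could not be fitted, since all libraries over that limit were version 2.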

Other observations

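*Avpr1b*, *Galr1*, *Neurod2* and *Foxd3* were too low to be tested and were named after their values were seen. The first 3 are given above, and *Foxd3*, listed among glial markers, had a mean of 9.40 CPM in epsilon cells and 0.378 in alpha cells. *Hspa5*, a chaperone gene of the endoplasmic reticulum also named after its value was seen, had means of 1450 and 746 CPM (log2 fold 0.93, adjusted p = 0.000303 in edgeR), under the limit on the fold.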
